A study of Mus musculus with 7 samples.

Results

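The glutamate receptor genes and the postsynaptic scaffold genes that hold these receptors at the synapse were examined in microdissected suprachiasmatic nucleus (SCN), the seat of the central circadian clock in the hypothalamus. The 33 genes were taken by name: 23 subunit genes of the AMPA, kainate, NMDA, delta and metabotropic glutamate receptors and 10 scaffold genes of the Dlg, Shank and Homer families. They are 33 of the 55487 genes in the count table. The advanced glaucoma group was 3 libraries (scn_glauc_152, scn_glauc_153 and scn_glauc_154) from DBA/2J mice, which carry a spontaneous Gpnmb mutation and develop high eye pressure and retinal damage. The control group was 4 libraries (scn_cont_565, scn_cont_567, scn_cont_568 and scn_cont_570) from the DBA/2J-Gpnmb+SjJ strain, which has the DBA/2J background without that mutation. Both groups were kept in a light-dark cycle, and the genotype label reads WT in both. For age, sex and time of day the value is not given in the sources used here. The libraries are of bulk microdissected tissue, in which fewer cells of a type and less RNA per cell cannot be told apart. Nor can the extent of each dissection be told apart from the group, and its part in the results was not tested.

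Glutamate is the transmitter of the retinal ganglion cell axons that end in the SCN, where it is released together with the peptide PACAP. AMPA and kainate receptors carry fast current, NMDA receptors let in calcium when glutamate arrives on a depolarised cell, and calcium entry into SCN neurons is the step through which light resets the clock. Metabotropic receptors act through G proteins: group I excites, while groups II and III mostly hold back release from terminals. Behind the membrane, the Dlg proteins bind the tails of NMDA receptor subunits, the Homer proteins bind group I metabotropic receptors, and the Shank proteins join both assemblies.

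Depth was 3585907 to 5118764 counts in the advanced glaucoma libraries and 2174456 to 5285093 counts in the control libraries. Levels are given as CPM, counts per gene after TMM normalisation of library sizes. They are compared between libraries for the same gene or the same sum of genes, and not between genes, because the libraries count 3′ ends. A sum mostly follows its genes with the most counts. The markers of the labelled tissue differed between the groups: the 9 SCN neuron markers summed to 66.8 to 90.2 CPM in advanced glaucoma and 298 to 523 CPM in control, and 8 of the 9 passed lower. Vip, for a peptide of the SCN core, was at 1.18 to 3.88 CPM in advanced glaucoma and 64.6 to 152.4 CPM in control. The 3 GABAergic markers (Gad1, Gad2 and Slc32a1) summed to 386 to 729 CPM in advanced glaucoma and 746 to 1148 CPM in control. Markers of the lateral and tuberal hypothalamus (Pmch, Hcrt, Ghrh, Pomc, Agrp and Nkx2-1) went the other way. They summed to 556 to 1581 CPM in advanced glaucoma and 64.7 to 365 CPM in control, and only Nkx2-1 passed, higher in advanced glaucoma. The 6 markers shared by all neurons summed to 2738 to 3417 CPM in advanced glaucoma and 2847 to 3263 CPM in control, so these ranges overlapped. The 10 myelin markers summed to 2189, 3266 and 4639 CPM in advanced glaucoma and to 4054 to 5196 CPM in control. No marker of these lists was at 0 in all libraries. None of these sums was tested, and their part in the results on receptors and scaffolds was not tested beyond alternative fits with the myelin markers as a covariate and with scaling to the neuron markers, which each called 0 of the 32 members.

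**Figure D1:**
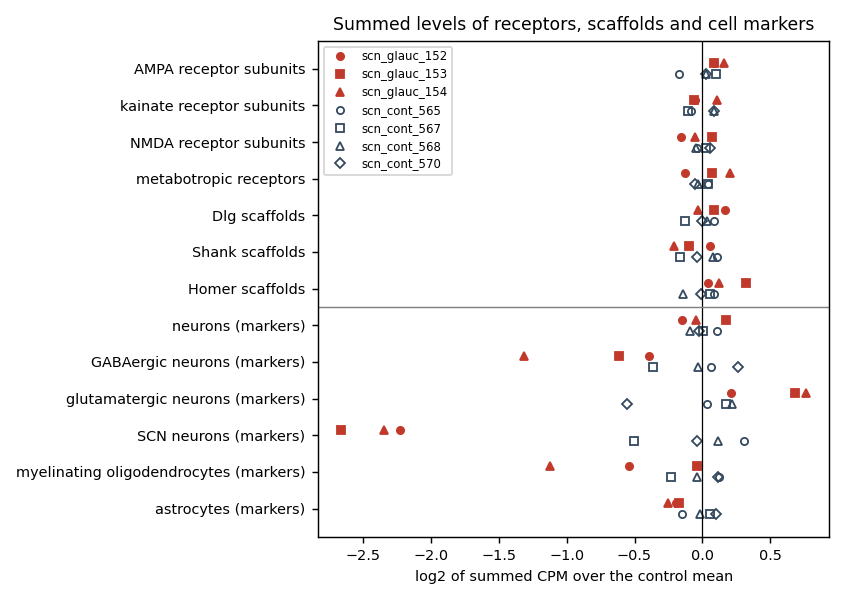
Summed CPM of each receptor class, each scaffold family and 6 sets of cell markers, as log2 over the control mean, with 1 point per library (red filled, advanced glaucoma; blue open, control). The receptor and scaffold sums lie close to 0 in both groups, while the SCN neuron markers of the advanced glaucoma libraries lie more than 2 units below it.

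No glutamate receptor or scaffold gene passed the test between advanced glaucoma and control. Of the 33 genes, 32 passed the filter on low counts, and 0 of them were called, against 0.471% of all genes tested; a call is an adjusted p under 0.05 in the quasi-likelihood test of edgeR with Benjamini-Hochberg adjustment over 14020 genes. Their adjusted p ran from 0.288 to 0.998. DESeq2 and limma-voom also called 0 of the 32, and so did edgeR with the myelin covariate. At an unadjusted p under 0.05 there were 5 members by DESeq2 (6.67% of all genes), 8 by limma-voom (9.30% of all genes) and 1 with the myelin covariate (5.51% of all genes), against 6 by edgeR (8.20% of all genes). The sum over all members was 2334, 2409 and 2420 CPM in advanced glaucoma and 2239, 2335, 2333 and 2359 CPM in control. Its means were 2388 ± 47.1 CPM in advanced glaucoma and 2317 ± 53.2 CPM in control (SD, n = 3 and n = 4). Gria2 was the largest part, with means of 521 CPM in advanced glaucoma and 510 CPM in control. The sum therefore says little about members with few counts. At an unadjusted p under 0.05, 5 members were higher in advanced glaucoma, where 4.05% of all genes were, and 1 was lower, where 4.15% of all genes were. The 5 are Gria1, Grik2, Grin2a, Grm8 and Dlg3, and the remaining 1 is Grik1. Advanced glaucoma and control libraries had separate ranges for 4 of the 32 (Gria1, Grik2, Grm8 and Dlg3), which is 12.5%, against 8.02% of all genes tested.

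For most members the interval of the difference was narrow. The 95% interval of the fold change lay wholly inside a 2-fold change in either direction for 27 of the 32 members (84.4%) and for 79.4% of all genes tested. It lay inside a 1.5-fold change for 20 members (62.5%), against 52.5% of all genes. The 5 members whose interval reached past 2-fold were Grik1, Grm2, Grm3, Grm8 and Homer3. The median log2 fold change was 0.04 over the 32 members, with 19 positive and 13 negative, and -0.0071 over all genes tested. The median spread between libraries of a group was 0.196 log2 units for the members and 0.243 for all genes tested.

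**Figure D2:**
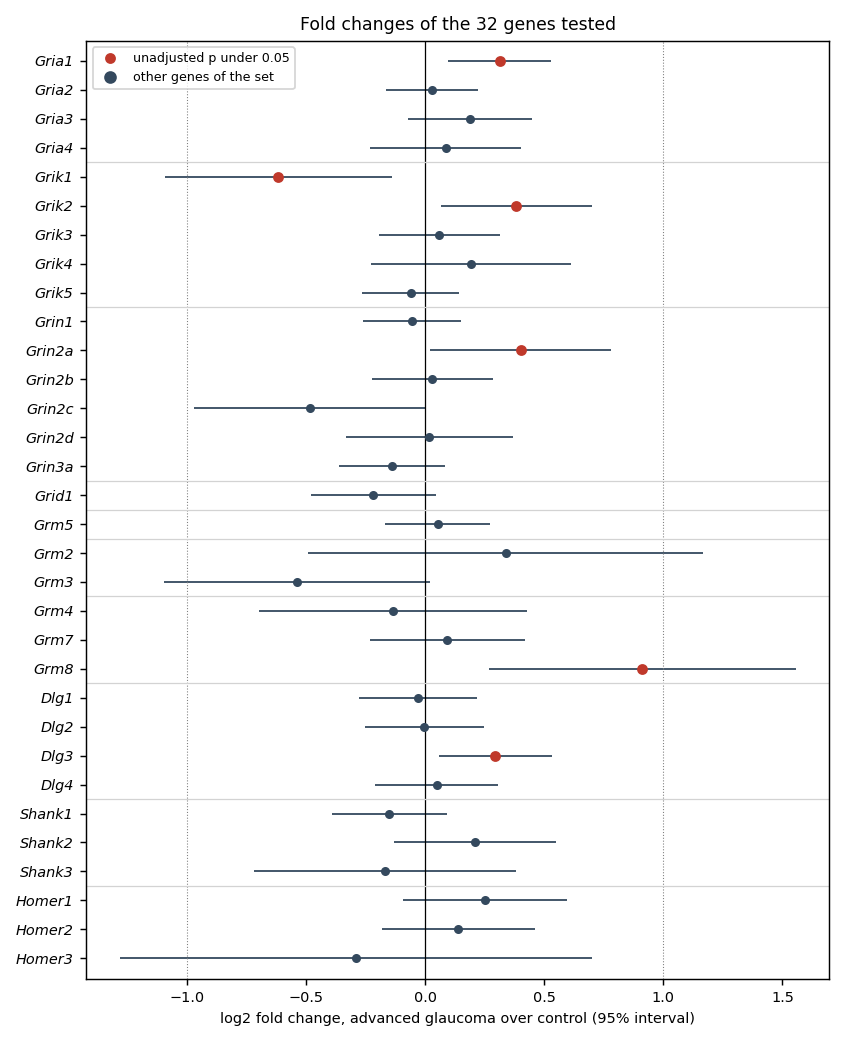
Log2 fold change of advanced glaucoma over control with its 95% interval (edgeR) for the 32 genes tested, grouped by receptor class and scaffold family between grey lines; red marks an unadjusted p under 0.05 and dotted lines mark a 2-fold change. Most intervals include 0, and the 5 that cross a dotted line belong to Grik1, Grm2, Grm3, Grm8 and Homer3.

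The AMPA receptor genes Gria1 to Gria4 encode the subunits GluA1 to GluA4 of the receptor for fast excitation. Their 4 log2 fold changes were all positive, 0.03 to 0.31, and 0 passed. Gria1 (ENSMUSG00000020524, chr11:57011387-57330244 in mm10) had 193 CPM in scn_glauc_152, 196 in scn_glauc_153 and 212 in scn_glauc_154, against 152.4, 155, 191 and 145 CPM in scn_cont_565, scn_cont_567, scn_cont_568 and scn_cont_570. Each advanced glaucoma library was above each control library, but the lowest of them lay only just above scn_cont_568. The fold was 1.24 (log2 fold change 0.31, SE 0.104, 95% interval 0.10 to 0.53; edgeR adjusted p = 0.288). Gria2, whose edited subunit keeps calcium out of the channel, was at 517, 510 and 535 CPM in the advanced glaucoma libraries, against 441, 566.9, 490 and 542 CPM in the control libraries. The advanced glaucoma values of Gria2 lay within the range of control, and its log2 fold change was 0.03 (95% interval -0.17 to 0.22; edgeR adjusted p = 0.979). Gria3 averaged 70.1 ± 8.35 CPM in advanced glaucoma and 61.3 ± 7.31 CPM in control (SD, n = 3 and n = 4). Gria4 averaged 37.4 ± 4.82 CPM in advanced glaucoma and 35.0 ± 4.06 CPM in control (SD, n = 3 and n = 4).

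Kainate receptors are built from GluK1 to GluK3, which form channels by themselves, and from the high-affinity subunits GluK4 and GluK5, which need a partner. Of the 5 genes, 3 had a positive log2 fold change, 2 a negative one, and 0 passed. Grik2, for GluK2 (ENSMUSG00000056073, chr10:49094833-49788766 in mm10), was at 33.7, 34.9 and 35.5 CPM in the advanced glaucoma libraries, against 28.8, 26.3, 25.0 and 26.7 CPM in the control libraries. The groups did not overlap, and the spread within advanced glaucoma was small (34.7 ± 0.899 CPM, against 26.7 ± 1.56 CPM in control; SD, n = 3 and n = 4). The fold was 1.30 (log2 fold change 0.38, SE 0.154, 95% interval 0.07 to 0.70; edgeR adjusted p = 0.457).

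Grik1, for GluK1 (ENSMUSG00000022935, chr16:87895900-88290265 in mm10), was the member with the largest negative fold change. It had 16.0 CPM in scn_glauc_152, 23.5 in scn_glauc_153 and 16.3 in scn_glauc_154, against 21.3, 23.0, 24.3 and 42.7 CPM in scn_cont_565, scn_cont_567, scn_cont_568 and scn_cont_570. The groups overlapped, because scn_glauc_153 lay within the range of control, and scn_cont_570 stood above all other libraries. The log2 fold change of -0.62 (SE 0.229, 95% interval -1.09 to -0.14; edgeR adjusted p = 0.398) became -0.30 without scn_cont_570 and -0.26 with the myelin markers as a covariate. The same library also had the highest Gad1 of the 7, at 395 CPM, where the other control libraries had 233 to 337 CPM and the advanced glaucoma libraries 146 to 266 CPM. The part of GABAergic markers in the Grik1 values was not tested. Grik3 averaged 83.0 ± 16.5 CPM in advanced glaucoma and 79.0 ± 4.92 CPM in control. Grik4 averaged 21.1 ± 1.84 CPM in advanced glaucoma and 18.2 ± 4.53 CPM in control, and Grik5 130 ± 4.49 CPM in advanced glaucoma and 136 ± 9.26 CPM in control (SD, n = 3 and n = 4). The ranges of all 3 overlapped between the groups.

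**Figure D3:**
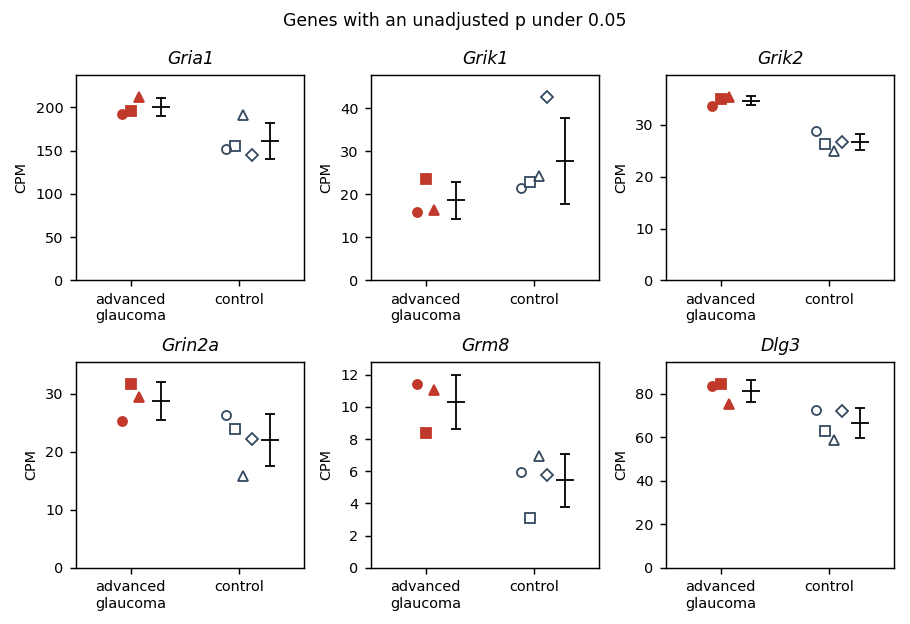
CPM in each library of the 6 members with an unadjusted p under 0.05, advanced glaucoma left in red and control right in blue; the black dash and bars beside the points are the mean and SD, and scn_cont_565, scn_cont_567, scn_cont_568 and scn_cont_570 are the open circle, square, triangle and diamond. The groups do not overlap for Gria1, Grik2, Grm8 and Dlg3, and scn_cont_570 (open diamond) stands alone for Grik1 at 42.7 CPM.

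NMDA receptors always hold GluN1, from Grin1, with GluN2 subunits that set their kinetics and GluN3 subunits that lower their calcium flow. Of the 7 genes, 6 were tested, 3 had a positive and 3 a negative log2 fold change, and 0 passed. Grin1 was at 153.9, 196 and 171 CPM in the advanced glaucoma libraries, against 178, 182, 175 and 186 CPM in the control libraries. The advanced glaucoma libraries lay on both sides of the control range, with a log2 fold change of -0.05 (95% interval -0.26 to 0.15; edgeR adjusted p = 0.947). Grin2a, for GluN2A (ENSMUSG00000059003, chr16:9567898-9995560 in mm10), was at 25.2, 31.7 and 29.4 CPM in the advanced glaucoma libraries, against 26.3, 23.9, 15.9 and 22.2 CPM in the control libraries. The ranges overlapped through scn_glauc_152 and scn_cont_565 (log2 fold change 0.40, SE 0.185, 95% interval 0.02 to 0.78; edgeR adjusted p = 0.576), and without scn_cont_568 the log2 fold change was 0.27. Grin2b, for GluN2B, averaged 76.4 ± 6.10 CPM in advanced glaucoma and 74.1 ± 11.5 CPM in control (SD, n = 3 and n = 4). Its log2 fold change was 0.03, with a 95% interval of -0.22 to 0.28.

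Grin2c, whose subunit GluN2C is known in the brain from the cerebellum and from astrocytes, had 8.87 CPM in scn_glauc_152, 21.8 in scn_glauc_153 and 18.3 in scn_glauc_154, against 20.6 to 25.9 CPM in control. Library scn_glauc_152 was far below the others, and the log2 fold change of -0.48 (edgeR adjusted p = 0.619) became -0.17 without it and -0.77 without scn_glauc_153. Grin2d averaged 28.6 ± 0.457 CPM in advanced glaucoma and 27.9 ± 4.91 CPM in control. Grin3a, for GluN3A, averaged 88.1 ± 9.16 CPM in advanced glaucoma and 97.4 ± 5.41 CPM in control (SD, n = 3 and n = 4). Grin3b, for GluN3B, had 0 of 28130762 counts over all 7 libraries, which allows a level of up to 0.107 CPM when the limit is 3 counts over all libraries, for counting error only. The locus of Grin3b shares bases with Tmem259, a tested gene on the other strand; for the strand setting of the counting, a value is not given in the sources used here. Grid1, for the delta receptor GluD1 that binds cerebellin and does not open with glutamate, averaged 52.5 ± 5.66 CPM in advanced glaucoma and 60.8 ± 5.77 CPM in control (SD, n = 3 and n = 4). Its groups overlapped, at -0.22 log2 units (95% interval -0.48 to 0.04; edgeR adjusted p = 0.735).

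Promoter windows of 22 of the 33 genes were read from RefSeq (GRCm38.p6), each from 250 bases before to 50 bases after a start site, 35 windows in all. They were searched on both strands for the cAMP response element TGACGTCA, bound by CREB in the light response, for the E-box CACGTG, bound by CLOCK and BMAL1, and for the AP-1 site TGACTCA. No window held the first or the last, which stand in 1.79% and 5.20% of all 32851 windows. The E-box stood in 3 of the 35 windows (8.57%) and in 7.15% of all windows. The 3 belong to Grin1, which has 2 E-boxes in its window, and to Dlg1, which has 1 in each of 2 windows. Because both matches of Grin1 fall within a single window and Dlg1 is the only scaffold with a match, shown are the Grin1 window (chr2:25319138-25319437, minus strand) and the Dlg1 window (chr16:31663685-31663984, plus strand), 5′ to 3′, with each E-box in capitals. In Grin1 the E-boxes begin 181 and 85 bases before the start site, and in Dlg1 84 bases before it. These matches are letters only, and neither gene had an adjusted p under 0.05 in the edgeR test.
Grin1: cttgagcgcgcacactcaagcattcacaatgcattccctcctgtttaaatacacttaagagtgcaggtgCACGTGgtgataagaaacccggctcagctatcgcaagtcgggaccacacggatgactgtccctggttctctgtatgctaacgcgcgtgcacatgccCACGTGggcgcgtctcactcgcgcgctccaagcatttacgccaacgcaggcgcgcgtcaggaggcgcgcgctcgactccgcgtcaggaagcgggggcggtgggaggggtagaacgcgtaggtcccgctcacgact
Dlg1: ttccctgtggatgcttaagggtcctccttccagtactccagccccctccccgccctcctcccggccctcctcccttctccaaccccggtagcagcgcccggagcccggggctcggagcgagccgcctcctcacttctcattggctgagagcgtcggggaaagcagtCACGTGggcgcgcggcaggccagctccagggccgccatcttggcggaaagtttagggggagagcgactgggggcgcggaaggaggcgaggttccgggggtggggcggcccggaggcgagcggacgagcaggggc

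Among the metabotropic receptors, group I is represented by Grm5, group II by Grm2 and Grm3, and group III by Grm4, Grm7 and Grm8. Of the 6 genes, 4 had a positive and 2 a negative log2 fold change, and 0 passed. Grm5, for the calcium-mobilising receptor mGluR5, was at 160, 170 and 211 CPM in the advanced glaucoma libraries, against 176, 191, 169 and 161 CPM in the control libraries. Library scn_glauc_154 was the highest of the 7 and scn_glauc_152 the lowest, and the log2 fold change was 0.05 (95% interval -0.17 to 0.27; edgeR adjusted p = 0.956). Grm8, for mGluR8, a presynaptic receptor that dampens release (ENSMUSG00000024211, chr6:27275119-28135178 in mm10), had the largest positive fold change of the set. It was at 11.4, 8.40 and 11.1 CPM in the advanced glaucoma libraries, against 5.96, 3.06, 6.94 and 5.76 CPM in the control libraries. The groups did not overlap, and the values rested on 58, 39 and 40 counts in advanced glaucoma and on 12, 10, 28 and 32 counts in control. The fold was 1.88 (log2 fold change 0.91, SE 0.313, 95% interval 0.27 to 1.56; edgeR adjusted p = 0.326).

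Grm3, for mGluR3, which astrocytes carry as well as neurons, had 9.46 CPM in scn_glauc_152, 12.5 in scn_glauc_153 and 5.54 in scn_glauc_154, against 10.9 to 15.6 CPM in control. The ranges overlapped, and the log2 fold change of -0.54 (edgeR adjusted p = 0.640) became -0.30 without scn_glauc_154, the library with 20 counts, -0.82 without scn_glauc_153 and -0.19 with the myelin covariate. Beside Grm3 and Grin2c, the 7 astrocyte markers summed to 1974 to 2080 CPM in advanced glaucoma and 2111 to 2513 CPM in control. Most of the gap between these sums came from the filament gene Gfap, at 90.8 to 117 CPM in advanced glaucoma and 137 to 491 CPM in control (edgeR adjusted p = 0.366). Of the 7, 5 had a negative log2 fold change and 1 passed lower, the water channel gene Aqp4, at -0.62 (edgeR adjusted p = 0.00873). Aldh1l1, at 38.6 to 41.1 CPM in advanced glaucoma and 48.7 to 58.6 CPM in control, did not overlap (log2 fold change -0.40; edgeR adjusted p = 0.285). S100b was at -0.25 (edgeR adjusted p = 0.433) with overlapping ranges. Gja1, Slc1a2 and Slc1a3 lay between -0.04 and 0.06 and overlapped between the groups. The part of astrocytes in the Grm3 and Grin2c values was not tested. Grm2, for the presynaptic receptor mGluR2, had only 9 to 35 counts in a library. Grm4 averaged 8.75 ± 1.38 CPM in advanced glaucoma and 9.66 ± 1.41 CPM in control. Grm7, for mGluR7 of the release site, averaged 42.9 ± 9.33 CPM in advanced glaucoma and 40.0 ± 4.10 CPM in control (SD, n = 3 and n = 4).

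The Dlg genes encode membrane-associated guanylate kinases: SAP97 from Dlg1, PSD-93 from Dlg2, SAP102 from Dlg3 and PSD-95 from Dlg4. Of the 4, 2 had a positive and 2 a negative log2 fold change, and 0 passed. Dlg4 was at 143, 122 and 122 CPM in the advanced glaucoma libraries, against 144, 99.8, 148 and 110 CPM in the control libraries. All 3 advanced glaucoma values lay inside the control range, with a log2 fold change of 0.05 (95% interval -0.21 to 0.31; edgeR adjusted p = 0.969). Dlg3 (ENSMUSG00000000881, chrX:100767722-100818410 in mm10) was at 83.5, 84.4 and 75.3 CPM in the advanced glaucoma libraries, against 72.5, 62.7, 58.5 and 71.9 CPM in the control libraries. Every advanced glaucoma library was above every control library, and the fold between the groups was 1.23 (log2 fold change 0.29, SE 0.115, 95% interval 0.06 to 0.53; edgeR adjusted p = 0.439). Dlg1 and Dlg2 had log2 fold changes of -0.03 and -0.0028, with intervals of -0.28 to 0.22 and -0.25 to 0.25.

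Shank1, Shank2 and Shank3 encode the long scaffolds beneath the receptor layer. Shank1 averaged 85.0 ± 5.72 CPM in advanced glaucoma and 94.8 ± 13.7 CPM in control. Shank2 averaged 29.6 ± 3.94 CPM in advanced glaucoma and 25.6 ± 2.10 CPM in control, and Shank3 9.51 ± 2.24 CPM in advanced glaucoma and 10.8 ± 1.62 CPM in control (SD, n = 3 and n = 4). The ranges overlapped for all 3 genes, and their log2 fold changes were -0.15, 0.21 and -0.17, with edgeR adjusted p of 0.825 to 0.937. Shank1, Shank3 and Homer3 also share bases with a tested gene of the other strand. Homer1, whose long products tie mGluR5 to Shank and whose short product is induced by activity, was at 36.1, 61.6 and 47.6 CPM in the advanced glaucoma libraries, against 33.8, 49.0, 36.7 and 42.0 CPM in the control libraries. The highest value was in scn_glauc_153, and the ranges overlapped (log2 fold change 0.25, 95% interval -0.09 to 0.60; edgeR adjusted p = 0.782). The fold change of Homer1 was 0.0363 on the log2 scale without scn_glauc_153 and 0.43 without scn_glauc_152. The table gives a single count per gene, so the long and short Homer1 products were not separated. Homer2 averaged 41.0 ± 3.69 CPM in advanced glaucoma and 37.8 ± 7.51 CPM in control (SD, n = 3 and n = 4). Homer3 had 6 to 27 counts in a library and the widest interval of the set, -1.28 to 0.70 on the log2 scale.

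**Figure D4:**
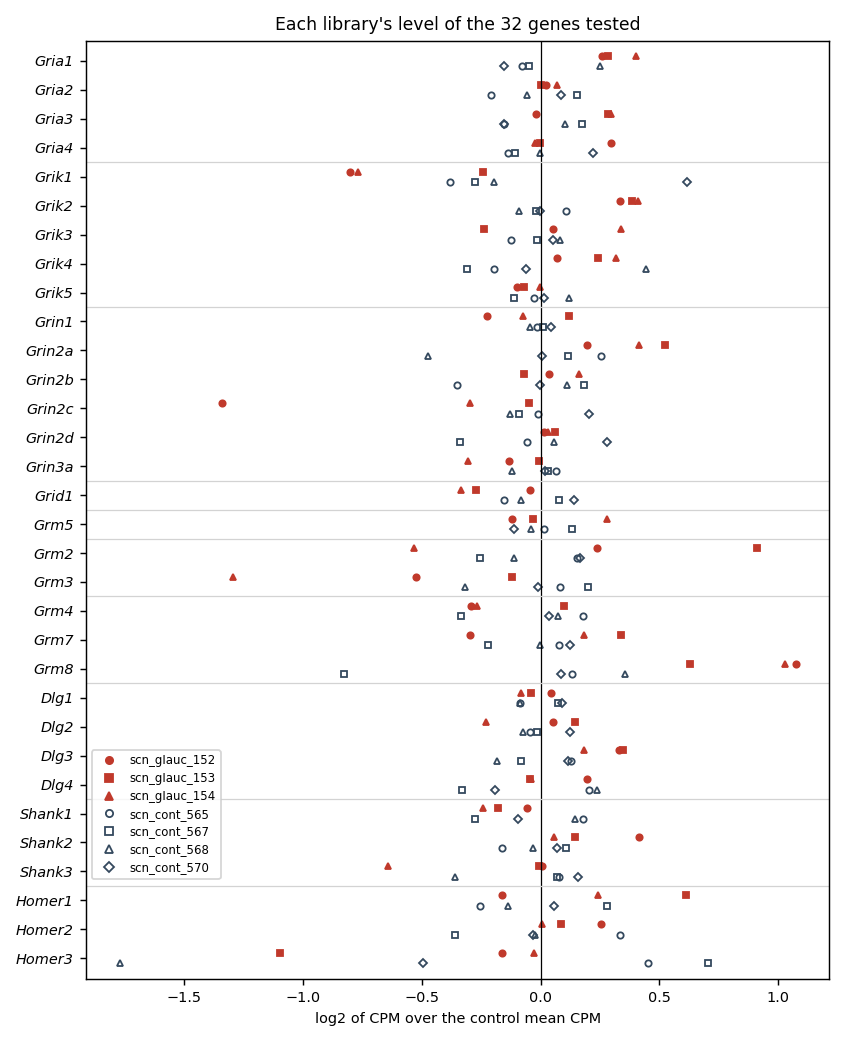
Log2 of each library's CPM over the control mean for the 32 genes tested, with advanced glaucoma (red filled) drawn just above control (blue open) in each row. The points of Gria2, Grik5, Grin1 and Dlg1 stay close to 0, while the low-count genes Grm2, Grm3, Grm8 and Homer3 and single libraries of Grin2c and Grik1 spread widest.

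As a set, the receptor and scaffold genes were centred close to their control mean in every library. The median deviation of the 32 members from that mean was 0.04 log2 units in each advanced glaucoma library and lay between -0.04 and 0.05 in the control libraries. Opposite deviations cancel in such a median, so it does not show how close single genes lay. In scn_glauc_152, Grin2c was at 8.87 CPM, where its control mean was 22.5 CPM. The lowest value of the 7 libraries was in an advanced glaucoma library for 12 members and in a control library for 20. Advanced glaucoma has 3 of the 7 libraries, and 12 of 32 is near that share. The highest value was in scn_glauc_152, scn_glauc_153 and scn_glauc_154 for 3, 7 and 5 members. In scn_cont_565, scn_cont_567, scn_cont_568 and scn_cont_570 it was for 4, 4, 3 and 6. By library, scn_cont_567 was lowest most often, for 8 members, and scn_glauc_153 was highest most often, for 7.

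Ratios of subunit pairs within a library do not depend on the scaling of the libraries, and 3 were compared by two-sided exact permutation tests, whose smallest possible p with 3 and 4 libraries is 0.0286. The log2 ratio of Grik5 to Grik2 counts was 1.91, 1.89 and 1.93 in the advanced glaucoma libraries, against 2.20, 2.25, 2.56 and 2.36 in the control libraries. The groups did not overlap, with a difference of -0.43 (exact permutation p = 0.0286, adjusted over the 3 ratios 0.0857). That is the smallest p the design can give, and it did not pass after adjustment. It could have passed only if another of the 3 ratios had also reached that p. The adjusted value therefore does not measure the size of this difference. In edgeR the log2 fold change was 0.38 for Grik2 and -0.06 for Grik5. The Grik5 to Grik2 ratio thus largely restates the Grik2 difference given above and is not a separate result. The ratio of Gria1 to Gria2 averaged -1.38 ± 0.047 in advanced glaucoma and -1.66 ± 0.265 in control (SD, n = 3 and n = 4; exact permutation p = 0.2, adjusted 0.3). The ratio of Grin2a to Grin2b, which rises in many brain regions as synapses mature, averaged -1.41 ± 0.226 in advanced glaucoma and -1.75 ± 0.488 in control (SD, n = 3 and n = 4; exact permutation p = 0.314, adjusted 0.314). Both of these overlapped between the groups.

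**Figure D5:**
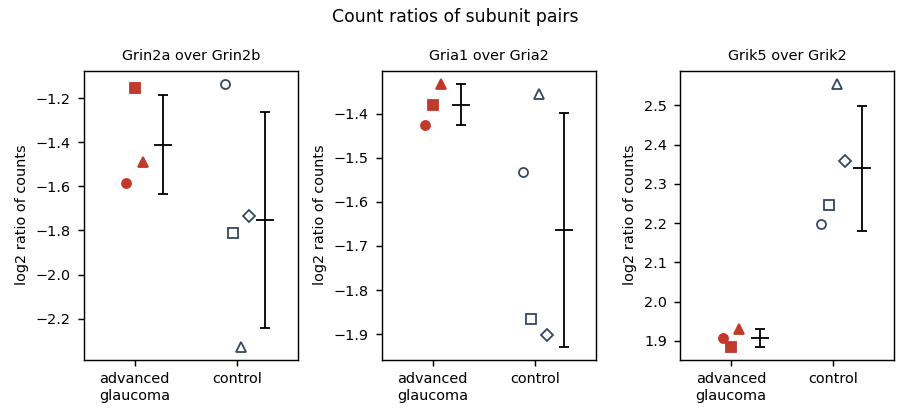
Log2 ratio of counts for 3 subunit pairs in each library, advanced glaucoma left in red and control right in blue, with the mean and SD in black. The Grik5 to Grik2 ratio is 1.89 to 1.93 in advanced glaucoma and 2.20 to 2.56 in control, and the other ratios overlap between the groups.

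The other genes of the glutamate synapse did not pass either. Of 64 genes in 5 lists, 63 were tested, and 0 had an adjusted p under 0.05 by edgeR; at an unadjusted p under 0.05, 7 were higher and 4 lower in advanced glaucoma. Over all genes tested, 0.471% were called, 4.05% were higher and 4.15% lower at these thresholds. The 13 auxiliary proteins of AMPA receptors had a median log2 fold change of -0.09, with Cacng5 at -0.40 and Cacng2, for stargazin, at -0.20. Neto1 and Neto2, auxiliary to kainate receptors, were at -0.0031 and -0.41. The 28 other postsynaptic density genes had a median of -0.08 and held the smallest adjusted p of the 5 lists, that of Baiap2, which encodes a partner of PSD-95 and Shank. Baiap2 was at 127, 178 and 168 CPM in the advanced glaucoma libraries, against 98.8, 144, 95.9 and 101 CPM in the control libraries (log2 fold change 0.52, SE 0.142; edgeR adjusted p = 0.179). Its ranges overlapped through scn_cont_567, and it passed without that library (adjusted p = 0.00846) or without scn_glauc_152 (0.0336). In the same list Cnksr2, for a scaffold of the postsynaptic density, had a log2 fold change of -0.54 (edgeR adjusted p = 0.240).

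The 10 genes tested for glutamate release, uptake and metabolism had a median log2 fold change of 0.09. Slc17a6, for the vesicular transporter VGLUT2 of hypothalamic excitatory neurons, was at 135, 175 and 190 CPM in the advanced glaucoma libraries, against 104, 126, 139 and 72.2 CPM in the control libraries. The ranges overlapped through scn_glauc_152 and scn_cont_568 (log2 fold change 0.60, SE 0.223; edgeR adjusted p = 0.524). Beside Slc17a6, the 6 markers of lateral and tuberal hypothalamus summed to 556 to 1581 CPM in advanced glaucoma and 64.7 to 365 CPM in control. All 6 had a positive log2 fold change. Most of the gap between the sums was Pmch, at 202 to 1331 CPM in advanced glaucoma and 11.9 to 25.3 CPM in control. Ghrh, at 38.3 to 77.6 CPM in advanced glaucoma and 8.82 to 26.6 CPM in control, did not overlap either. Nkx2-1, at 41.6 to 56.8 CPM in advanced glaucoma and 12.6 to 27.8 CPM in control, passed higher (log2 fold change 1.18; edgeR adjusted p = 0.00819). Hcrt, Pomc and Agrp overlapped between the groups. The part of these markers in the Slc17a6 values was not tested. Slc1a1, a neuronal glutamate uptake gene, was at 0.24. The 10 genes of calcium-calmodulin kinase and group I signalling had a median of 0.16. Itpr1, for the calcium release channel of the endoplasmic reticulum that opens after group I receptors act, was at 0.46 (edgeR adjusted p = 0.185). With no filter on low counts, Baiap2 (adjusted p = 3.90e-04), Slc17a6 (3.74e-05) and Itpr1 (0.00866) passed in edgeR. Their log2 fold changes hardly moved, to 0.54, 0.61 and 0.47. That setting raised the calls over all genes as well, from 66 of 14020 to 202 of 24908. The lower adjusted p therefore came with the setting and not with a larger difference in these genes.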

How the data were processed

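RNA of SCN microdissections was turned into BRB-seq libraries, which tag transcripts at their 3′ ends, per the labels' protocols. Raw counts per gene were deposited by the authors. The build mm10 and the tools DESeq2, featureCounts, HTSeq and STAR are named per the submitters' processing notes. For roles, versions, strand setting and molecular identifiers a value is not given in the sources used here. The floor for the undetected gene covers counting error only. The intervals of the fold changes come from the quasi-likelihood fit, so they include the spread between libraries. Neither was adjusted for the settings that are not given. Libraries were grouped by their labels. No label ties a library to a single mouse, and p-values measure the spread between these libraries.

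Counts were analysed with edgeR 4.0.16 in R 4.3.3: filterByExpr by group (14020 genes kept), TMM scaling, a robust quasi-likelihood test with group as the only term, and Benjamini-Hochberg adjustment over all genes at 0.05. SE is the log2 fold change divided by the square root of F. Ratios used counts with 0.5 added. Alternatives were other scaling, other filters, a covariate of 10 myelin markers, DESeq2 1.42.0, limma-voom (limma 3.58.1) with sample weights, and the omission of each library in turn; scaling to neuron markers was added after the data were seen. Simulated data with known changes served to test the fit. Members and lists were chosen with earlier results of these data known. Values in every library are given for members with an unadjusted p under 0.05 or no overlap, and for Grin1, Gria2, Grm5, Dlg4 and Homer1; Grin2c and Grm3 were added after their values were seen, and up to 2 genes are named per pathway list. Positions and overlaps are from GENCODE M21 (GRCm38, the assembly of mm10), and promoters are from RefSeq.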

Additional observations from a re-analysis of the deposited data

Results flagged for a closer look

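Grik1 in the control library scn_cont_570, at 42.7 CPM, lay far from the other control libraries, at 21.3 to 24.3 CPM. The gap was 0.862 of the whole control range, over Dixon's 95% critical value for 4 libraries. It was the single value marked among 35 examined (32 genes and 3 ratios), where chance marks about 1 in 20, and the advanced glaucoma group of 3 was not examined.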

How the results depend on the processing

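None of the 32 members was called in any of the 15 alternative fits, which left out a library or changed the scaling, filter, covariate or tool. These fits gave 476 values for members, and the smallest edgeR adjusted p was 0.138, for Gria1 without scn_cont_568. The sign held throughout for 17 members and changed for 15, in 29 of the 476 values, with no call on either side. The cause was not tested. With the myelin covariate the log2 fold change was -0.0317 for Gria2, -0.20 for Grik3, 0.0247 for Grin1, -0.10 for Grin2b, -0.14 for Grm5, 0.10 for Grm4, 0.17 for Dlg2 and 0.0623 for Shank3. With limma-voom it was -0.00075 for Grin2d and 0.11 for Homer3, and with no filter on low counts 0.0134 for Dlg2. Leaving out each library gave -0.0294 to 0.0818 for Gria2, -0.0276 to 0.18 for Gria4, -0.0874 to 0.19 for Grik3, -0.15 to 0.0268 for Grin1, -0.0501 to 0.0906 for Grin2b, -0.083 to 0.14 for Grin2d, -0.0713 to 0.13 for Grm5, -0.0686 to 0.61 for Grm2, -0.0481 to 0.26 for Grm7, -0.0676 to 0.0064 for Dlg1, -0.0788 to 0.10 for Dlg2, -0.0468 to 0.14 for Dlg4, -0.28 to 0.00433 for Shank3 and -0.62 to 0.10 for Homer3. With a library left out, the ratio difference was -0.48 to -0.36 for Grik5 to Grik2, 0.20 to 0.39 for Gria1 to Gria2 and 0.15 to 0.55 for Grin2a to Grin2b; the permutation test cannot pass with so few libraries. Of the other synapse genes, 3 were called with no filter (Baiap2, Itpr1 and Slc17a6, all higher) and 0 to 1 when leaving out a library. Over all genes, 66 were called, 202 with no filter, 16 with the myelin covariate and 28 to 93 when leaving out a library (28 without scn_glauc_154, 33 without scn_cont_570). Low counts limit Grm2, Grm8 and Homer3. No paired analysis was possible because the groups share no replicate number.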
